A study of Homo sapiens with 48 samples.

Results

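The interferon regulatory factors (IRFs) were followed in AMO1 cells, a human multiple myeloma line, with IRF4 set against its relatives. The 9 members were the rows of the count table with the symbols IRF1, IRF2, IRF3, IRF4, IRF5, IRF7, IRF8 and IRF9, plus the cofactor IRF2BP2, out of 58302 genes in the table. The cells carried short hairpin RNAs under a promoter that doxycycline (Dox) switches on. Clones 1 and 3 carried shRNAs against IRE1 (labelled IRE1 sh7,8,9; its gene is ERN1), and clones 1 and 18 carried shRNAs against XBP1 (labelled XBP1 sh4,6,7). Each clone was sampled without treatment (0 h) and after 24, 48 or 72 h of Dox at 0.2 µg/ml, in 3 flasks per time, which gave 16 groups of 3 and 48 libraries. Each clone is a single line, so differences between clones include whatever set these lines apart, and Dox itself is part of every change from 0 h because no culture with a control shRNA is part of this comparison.

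IRFs are transcription factors that bind DNA through a domain with a conserved series of tryptophans and recognise sites built on a GAAA core. IRF3, IRF5 and IRF7 lie idle until sensors of foreign nucleic acid have them phosphorylated, after which they switch on interferon genes. IRF9 carries the signal of type I interferon to DNA, IRF1 is itself a classic interferon-inducible gene, and IRF2 can oppose IRF1 at shared sites. IRF4 and IRF8 are the lymphoid and myeloid branch of the family. They bind DNA weakly alone and pair with factors of the ETS and AP-1 families. IRF4 drives plasma cell differentiation and is a known survival factor of myeloma cells, whereas IRF8 belongs to earlier B cells and to myeloid cells. IRF2BP2 is a repressor that binds IRF2.

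Libraries held 19177855 to 40767202 counts with a median of 30776246.5, so 1 count was worth at most 0.0521 CPM, the count scaled to a fixed library total. In shIRE1 clone 1, ERN1 fell from 152 ± 2.37 to 96.4 ± 5.66 CPM at 48 h (SD, n = 3), and in shIRE1 clone 3 it fell from 438 ± 15.4 to 121 ± 4.27 CPM. XBP1 fell in both shXBP1 clones, by 2.24 and 1.94 on the log2 scale at 48 h. XBP1 mRNA also fell in shIRE1 clones 1 and 3 at 48 h, with log2 changes of -0.45 and -0.95. ERN1 changed by 0.62 in shXBP1 clone 1 and by -0.29 in shXBP1 clone 18 at 48 h. The silencing of either gene was thus accompanied by a change of the other. The 8 plasma cell markers examined were present in every library. Of the markers of other cell types, PAX5, CD3D and LYZ stayed at or below 0.257 CPM, whereas CD3E ran from 4.59 to 17.3, CR2 from 1.81 to 12.9, CD8A from 1.20 to 4.14 and MS4A1 from 0.0785 to 2.29 CPM. The library labelled shXBP1 clone 18, 72 h, replicate 3 stood apart. Genes with a mean log2 CPM above 1 that part the shXBP1 clones by at least 1.5 on the log2 scale at 0, 24 and 48 h alike (105 to 111, depending on the library placed, a rule chosen after the data were seen) placed the other 23 shXBP1 libraries with their own clone, but 107 of 108 such genes placed this library nearer to clone 1. Several results that rest on it are given with and without it, and the others include it. It also enters the shared estimate of spread, at every time, in the fits of shXBP1 clone 18 and of all libraries. No gene met all of these conditions between the shIRE1 clones, so their labels could not be checked this way. Each p-value measures the spread between flasks of a clone.

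IRF4 (ENSG00000137265) lies on the plus strand of chromosome 6 at 391739 to 411443 in GRCh38, with 9 exons in its canonical transcript. IRF1 (ENSG00000125347) lies on the minus strand of chromosome 5 at 132440440 to 132508719, and IRF8 (ENSG00000140968) on the plus strand of chromosome 16 at 85899116 to 85922606. RefSeq promoters of GRCh38.p14, which run from 250 bases before to 50 bases after an annotated start, had entries for 6 of the 9 members and none for IRF2, IRF3 and IRF7. The windows of 3 members are shown because the levels of their genes moved furthest after IRE1 silencing, all written 5′ to 3′ on the strand of the gene. Capitals mark matches, on either strand, to AANNGAAA, a simple form of the IRF site, or to TTCNNNGAA, the GAS site of interferon-inducible promoters. The IRF4 window is chr6:391502-391801, the IRF1 window chr5:132490724-132491023 and the IRF8 window chr16:85902580-85902879.
IRF4: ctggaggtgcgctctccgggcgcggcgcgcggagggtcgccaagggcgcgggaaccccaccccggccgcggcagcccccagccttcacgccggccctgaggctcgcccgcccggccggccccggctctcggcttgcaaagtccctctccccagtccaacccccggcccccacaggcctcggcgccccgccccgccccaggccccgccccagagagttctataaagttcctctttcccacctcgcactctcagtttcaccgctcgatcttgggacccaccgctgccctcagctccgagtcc
IRF1: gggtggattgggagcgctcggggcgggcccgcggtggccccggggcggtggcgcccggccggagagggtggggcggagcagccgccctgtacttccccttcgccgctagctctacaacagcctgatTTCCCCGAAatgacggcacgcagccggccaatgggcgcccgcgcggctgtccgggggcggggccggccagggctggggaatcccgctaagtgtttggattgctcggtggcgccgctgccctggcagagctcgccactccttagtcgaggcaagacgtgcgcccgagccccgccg
IRF8: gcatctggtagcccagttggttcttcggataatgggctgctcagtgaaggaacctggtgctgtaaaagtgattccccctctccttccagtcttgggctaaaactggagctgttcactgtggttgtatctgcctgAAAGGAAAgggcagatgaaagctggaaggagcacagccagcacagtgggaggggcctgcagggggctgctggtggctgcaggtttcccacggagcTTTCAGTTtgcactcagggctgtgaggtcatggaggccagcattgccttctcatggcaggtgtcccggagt
The IRF1 window held 1 GAS match whose first base is at -124, counting the start base as 0. The IRF8 window shown held 2 matches to the IRF letters, at -116 and -21, and the IRF4 window held a match to neither motif. A second IRF8 window, chr16:85902765-85903064, overlaps the one shown and held 1 match to the IRF letters, at -206. Both IRF8 windows and the IRF1 window lie inside the annotated span of their gene, away from its outermost start. Of 35116 promoters of the same length, 22.8% held AANNGAAA and 7.66% held TTCNNNGAA, and the motifs share no match in these windows. A match is a description of the letters only.

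Before Dox, IRF4 was by far the most abundant member per length of transcript. Over the 12 libraries at 0 h its level was 271 ± 23.8 CPM per kilobase of canonical transcript (SD, range 239 to 308). IRF2 followed at 41.5 ± 10.9 and IRF3 at 37.3 ± 4.41 CPM per kilobase, with ranges of 31.1 to 58.5 and 31.8 to 47.5 that overlapped. IRF2BP2 stood at 14.6 ± 1.15 CPM per kilobase. IRF5 at 8.31 ± 3.62 and IRF1 at 4.39 ± 2.61 CPM per kilobase overlapped each other, and IRF7 was at 0.833 ± 0.337 CPM per kilobase. IRF8 at 0.0633 and IRF9 at 0.0459 CPM per kilobase overlapped near the limit of detection. The order from IRF2 to IRF2BP2 depends on which transcript is measured, since per kilobase of all annotated exons IRF3 (15.7), IRF2BP2 (14.4) and IRF2 (13.9) came close together.

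IRE1 silencing lowered IRF4 mRNA in both shIRE1 clones, in steps that ended by 48 h. In shIRE1 clone 1 the 3 libraries held 1362, 1269.6 and 1269 CPM at 0 h, 1006, 968 and 989 CPM at 24 h, 605, 545 and 578 CPM at 48 h, and 597, 602 and 610.2 CPM at 72 h. Every library after Dox lay below every 0 h library, and the 48 h and 72 h libraries also lay below those at 24 h. The change from 0 h on the log2 scale was -0.40 ± 0.04 at 24 h, -1.17 ± 0.04 at 48 h and -1.11 ± 0.04 at 72 h (SE; edgeR adjusted p = 9.18e-08, 1.90e-14 and 4.31e-14). In shIRE1 clone 3 the libraries held 1436, 1447 and 1384 CPM at 0 h, 929, 1034 and 1007 CPM at 24 h, 303, 314 and 323 CPM at 48 h, and 327, 319.7 and 359 CPM at 72 h. The groups again did not overlap with 0 h, and the levels at 48 h were far lower than in clone 1. The log2 changes in clone 3 were -0.53 ± 0.05, -2.19 ± 0.06 and -2.10 ± 0.06 (edgeR adjusted p = 1.17e-06, 2.13e-13 and 3.99e-13). The summed level of the 8 plasma cell markers fell alongside without overlap at 48 h, from at least 12870 to at most 9507 CPM in clone 1. In clone 3 it fell from at least 15890 to at most 8655 CPM. The sum also fell without overlap at 48 h in the shXBP1 clones. There it went from at least 16160 to at most 13090 CPM in clone 1 and from at least 16730 to at most 15520 CPM in clone 18. SDC1 and JCHAIN had the highest medians of the 8 markers, 7260 and 3573 CPM. The part of this sum in the fall of IRF4 was not tested.

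**Figure D1:**
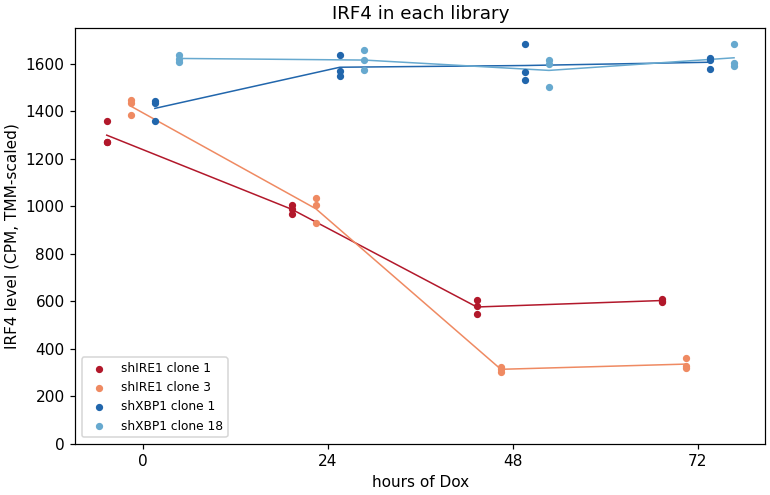
IRF4 level in each library (points, CPM scaled by TMM factors) against hours of Dox, with lines through the mean of 3 libraries per clone. The shIRE1 clones drop to group means of 576 and 313 CPM at 48 h and hold there, while the shXBP1 clones stay between 1358 and 1684 CPM.

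The fall of IRF4 took place between 0 and 48 h. From 24 to 48 h it fell by 0.77 ± 0.04 on the log2 scale in shIRE1 clone 1 and by 1.66 ± 0.05 in clone 3 (edgeR adjusted p = 1.32e-10 and 1.47e-11), steps in which 30.3% and 34.6% of all genes tested changed. From 48 to 72 h the log2 differences of IRF4 were 0.06 ± 0.04 and 0.09 ± 0.05 and did not pass the test (edgeR adjusted p = 0.785 and 0.491), and only 0.869% and 0.936% of all genes changed in that step. No other member passed in it either, though IRF5 in clone 3 at -0.34 (edgeR adjusted p = 0.0624) passed with no filter, with a correction for GC content and with DESeq2 (-0.35, -0.31 and -0.33). The fall at 48 h differed between the shIRE1 clones themselves by 1.01 ± 0.07 on the log2 scale (edgeR adjusted p = 2.53e-15), in a contrast where 30.8% of all genes differed. ERN1 started higher in clone 3 and fell there by 1.86 on the log2 scale at 48 h, against 0.66 in clone 1. The part of this in the unequal fall of IRF4 was not tested.

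After XBP1 silencing IRF4 did not fall. In shXBP1 clone 1 the libraries held 1358, 1436 and 1444 CPM at 0 h, 1639, 1548 and 1572 CPM at 24 h, 1531, 1684 and 1566 CPM at 48 h, and 1577, 1618 and 1627 CPM at 72 h. All 9 libraries after Dox lay above the 0 h libraries, by a small amount. The log2 changes were 0.14 ± 0.045, 0.16 ± 0.045 and 0.16 ± 0.045 (edgeR adjusted p = 0.0355, 0.0208 and 0.0158), and the first of these passed only narrowly. Leaving out 0 h replicate 1 or 24 h replicate 1 gave 0.13 and 0.14 at 24 h, leaving out 48 h replicate 2 gave 0.12 at 48 h, and these no longer passed. In shXBP1 clone 18 the 12 libraries ran from 1503 to 1682.5 CPM and every time overlapped with 0 h. The log2 changes there were -0.01, -0.05 and 0.01 with an SE of 0.05 each, and the last was -0.02 without the library that stood apart.

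Set against each other in 1 fit of all libraries, the mean change of IRF4 in the shIRE1 clones minus that in the shXBP1 clones was -0.54 ± 0.05 at 24 h, -1.74 ± 0.05 at 48 h and -1.69 ± 0.05 at 72 h (edgeR adjusted p = 1.45e-12, 1.78e-28 and 4.70e-28). In this fit 19.7%, 28.0% and 27.4% of all genes were lower in the same sense, and 19.1%, 28.9% and 28.0% were higher. The difference speaks of these 4 clones. Taken by single pairs, it was -1.35 at 48 h for shIRE1 clone 1 against shXBP1 clone 1 and -2.14 for shIRE1 clone 3 against shXBP1 clone 18. In RNA from whole cultures, fewer cells with a transcript and less of it per cell cannot be told apart.

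The standing of IRF4 within the family changed with its level. Of the counts of the 8 IRF genes, IRF4 held 89.5 ± 0.65% (SD, n = 3) in shIRE1 clone 1 before Dox, and 84.4 ± 0.811%, 73.5 ± 0.862% and 75.3 ± 0.683% after 24, 48 and 72 h. In shIRE1 clone 3 its share went from 88.2 ± 0.388% to 84.1 ± 0.158%, 56.3 ± 1.49% and 59.6 ± 2.71%. Per kilobase of transcript, the share at 48 h was 52.5 ± 1.20% in clone 1 and 34.6 ± 1.48% in clone 3, from 76.7 ± 1.33% and 74.7 ± 0.829%. IRF4 at 58.9 ± 1.90 CPM per kilobase in clone 3 at 48 h was then close to IRF3 at 52.6 ± 3.87, where at 0 h the same genes stood at 268 ± 6.36 and 35.1 ± 2.90 CPM per kilobase. In the shXBP1 clones the share of IRF4 stayed between 85.9% and 89.0% in all 8 groups. These shares were not tested.

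**Figure D2:**
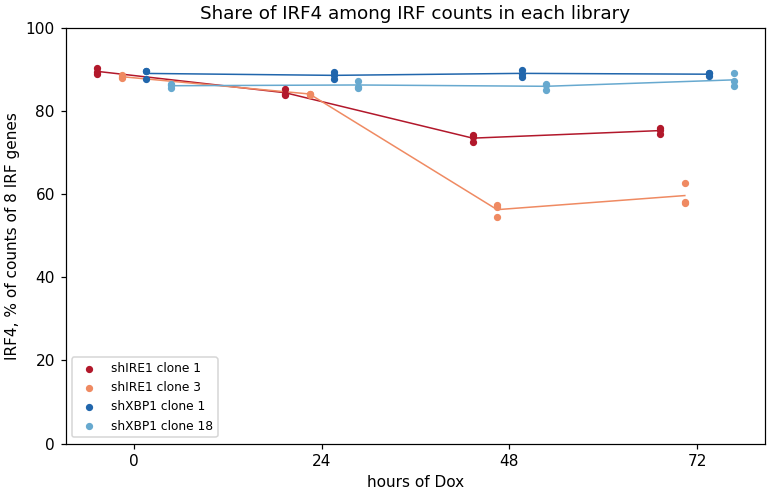
Counts of IRF4 as a percentage of the counts of the 8 IRF genes in each library (points), against hours of Dox, with lines through group means. The share ends at 75.3% and 59.6% in the shIRE1 clones and near its starting value in the shXBP1 clones.

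IRF1, the interferon-inducible activator, rose as IRF4 fell. In shIRE1 clone 1 it was at 9.91, 10.1 and 10.6 CPM at 0 h and at 31.5, 31.6 and 30.5 CPM at 48 h, with 16.7 ± 0.913 CPM at 24 h and 28.1 ± 0.921 CPM at 72 h between and after. The groups did not overlap, and the log2 changes were 0.71 ± 0.07, 1.62 ± 0.07 and 1.46 ± 0.07 (edgeR adjusted p = 3.59e-08, 1.15e-13 and 6.31e-13). In shIRE1 clone 3 IRF1 was at 16.6, 14.8 and 15.02 CPM at 0 h, at 16.1, 17.5 and 15.9 CPM at 24 h and at 54.8, 50.4 and 54.6 CPM at 48 h. Here the 24 h libraries overlapped with 0 h (log2 change 0.09 ± 0.08, edgeR adjusted p = 0.373), and the whole rise came between 24 and 48 h, by 1.68 ± 0.07 on the log2 scale (edgeR adjusted p = 3.06e-10).

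IRF1 also rose in shXBP1 clone 1, from 6.73, 6.60 and 6.84 CPM at 0 h to 11.8 ± 0.639, 12.6 ± 1.56 and 13.1 ± 0.834 CPM (log2 changes of 0.79, 0.89 and 0.94, edgeR adjusted p = 0.000165, 7.08e-05 and 3.74e-05). Clone 18 of shXBP1 began at 30.0 ± 1.12 CPM IRF1, a level the shIRE1 clone 1 libraries reached only after Dox, and showed no change that passed the test. In this clone the 24 h libraries (27.2 to 28.5 CPM) and 48 h libraries (25.3 to 28.6 CPM) lay slightly below those at 0 h (29.0 to 31.2 CPM). Its 72 h libraries there held 29.4, 30.0 and 14.1 CPM, the last being the library that stood apart, and the log2 change of -0.29 at 72 h became -0.0046 without it. The shIRE1 response exceeded the shXBP1 response by 1.32 ± 0.14 at 48 h and 1.24 ± 0.14 at 72 h on the log2 scale (edgeR adjusted p = 7.39e-11 and 3.39e-10), and by 1.09 at 72 h without that library. At 24 h the difference was 0.05 ± 0.14 and did not pass. Of the canonical exons of IRF1, 16.3% lie opposite exons of another gene. The overlapping IRF1-AS1, listed as C5orf56, was at 1.32 to 5.42 CPM and its log2 change at 48 h was 0.95 and 1.13 in the shIRE1 clones. Whether the counting used strand is not given in the sources used here.

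IRF8, the closest relative of IRF4, went from barely detected to clearly detected after IRE1 silencing. In shIRE1 clone 1 its counts were 12, 9 and 11 at 0 h, 17, 20 and 24 at 24 h, 132, 141 and 102 at 48 h, and 91, 96 and 87 at 72 h. In shIRE1 clone 3 they were 2, 5 and 1 at 0 h, 12, 18 and 22 at 24 h, 131, 204 and 166 at 48 h, and 200, 186 and 188 at 72 h. The groups after Dox lay above 0 h in both clones at each time. With the counts of a group summed and scaled by depth, IRF8 at 48 h was 10.96 times its 0 h level in clone 1 (exact 95% interval 7.63 to 16.3) and 46.6 times in clone 3 (23.5 to 109), from 32 and 8 counts at 0 h. At 72 h the ratios were 9.46 (6.55 to 14.1) and 57.8 (29.1 to 134.5). The intervals cover counting error only, and leaving out 1 library moved the fitted log2 change in clone 3 at 48 h between 5.02 (without 0 h replicate 3) and 6.32 (without 0 h replicate 2). IRF8 entered the tests of these clones through its later groups, so these values are a description.

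In the shXBP1 clones IRF8 stayed at a few counts. Clone 1 held 3, 7 and 8 counts at 0 h and 1, 3 and 2 counts at 72 h, a ratio of 0.351 (0.114 to 0.924). Clone 18 held 0 counts in all 0 h libraries, which allows up to 0.0376 CPM over the group, and 3, 3 and 8 counts summed at 24, 48 and 72 h, of which 6 came from the library that stood apart. Even at 72 h in clone 3, IRF8 was at 2.30 ± 0.167 CPM per kilobase against 63.1 ± 3.94 for IRF4.

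Some markers of other cell types also rose in the shIRE1 clones. The summed level of 4 mature B cell markers went from 3.04 to 3.83 CPM at 0 h to at most 14.4 CPM at 48 h in shIRE1 clone 1, with no overlap, and from 1.94 to 2.05 to 13.1 to 14.5 CPM in clone 3 and most of it was CR2. PAX5 was at 0 in 43 of the 48 libraries. The sum of 3 T cell markers, mostly CD3E, rose from 7.39 to 8.52 CPM to 18.9 to 20.4 CPM in clone 1 and from 9.94 to 10.6 CPM to 17.3 to 18.4 CPM in clone 3, with CD3D at 0 in 42 libraries. The T cell sum already stood at 17.1 to 19.6 CPM at 24 h in these clones, when IRF8 held at most 24 counts. The sum of 3 myeloid markers fell from 0.785 to 0.822 CPM to at most 0.37 CPM at 48 h in clone 1, and in clone 3 it was 0.118 to 0.256 CPM at 0 h and 0.317 to 0.614 CPM at 48 h. The T cell sum also rose without overlap at 48 h in shXBP1 clone 1, from at most 7.81 to at least 8.04 CPM. In shXBP1 clone 18 it rose from at most 14.03 to at least 14.95 CPM. The mature B cell sum rose without overlap in shXBP1 clone 18, from at most 5.65 to at least 6.15 CPM, and overlapped in shXBP1 clone 1. The part of these markers in the level of IRF8 was not tested.

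**Figure D3:**
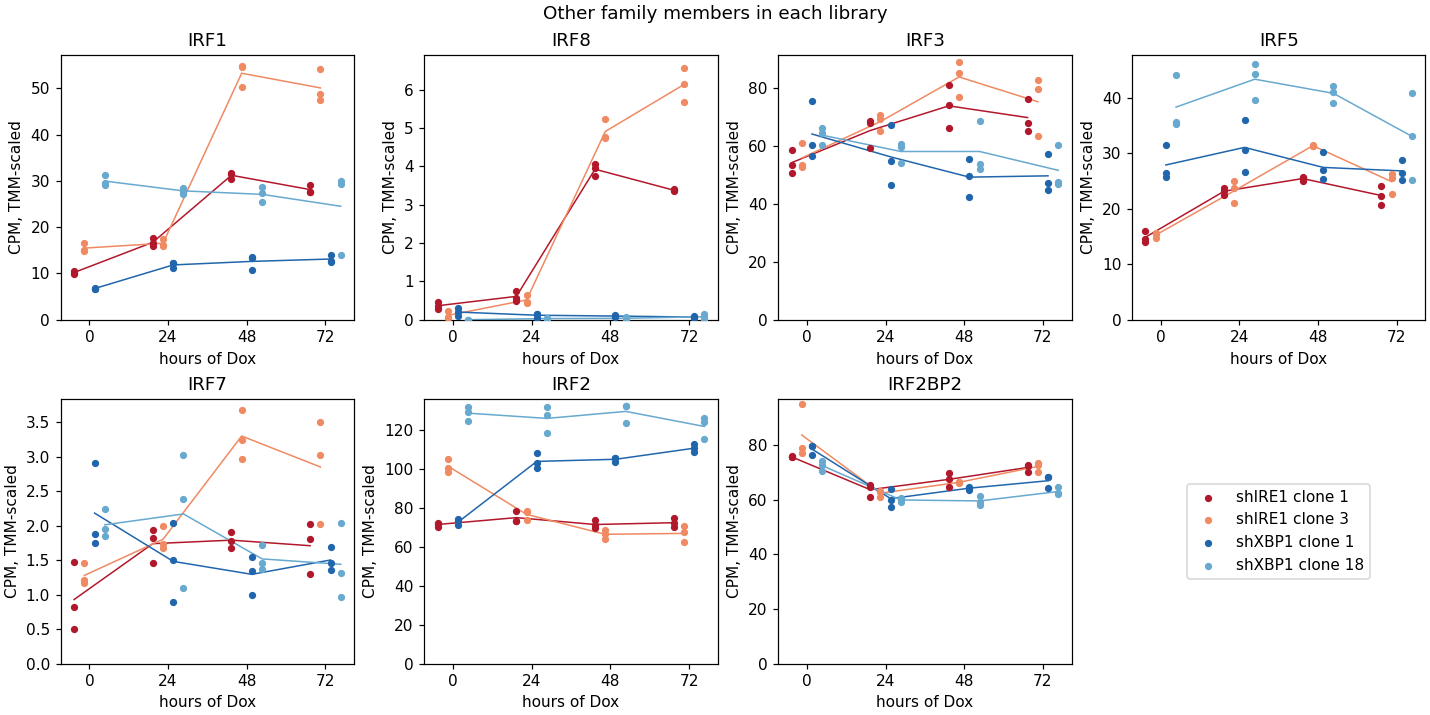
Levels of the other tested members in each library (points, CPM scaled by TMM factors) against hours of Dox, with lines through group means; each panel has its own scale from 0. IRF1 and IRF8 rise in the shIRE1 clones, IRF2 parts by clone, and IRF2BP2 lies below its 0 h libraries at all later times.

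IRF3, IRF5 and IRF7, the members that respond to nucleic acid sensors, rose in the shIRE1 clones by smaller amounts. IRF5 was at 14.1, 14.5 and 16.02 CPM at 0 h and at 25.7, 25.6 and 25.1 CPM at 48 h in clone 1, and at 15.6, 14.8 and 15.4 CPM against 31.3, 31.4 and 31.5 CPM in clone 3. No library overlapped, and the log2 changes at 48 h were 0.78 ± 0.07 and 1.03 ± 0.08 (edgeR adjusted p = 1.46e-08 and 3.48e-08). IRF3, kept at high levels in resting cells, went from 50.7, 53.3 and 58.8 CPM to 81.2, 74.2 and 66.4 CPM in clone 1 and from 53.0, 53.5 and 61.3 CPM to 89.2, 77.2 and 85.4 CPM in clone 3. Its log2 changes at 48 h were 0.45 ± 0.08 and 0.58 ± 0.10 (edgeR adjusted p = 8.60e-05 and 0.000116). IRF7 rested on few counts, 13, 27 and 45 at 0 h against 62, 63 and 46 at 48 h in clone 1, and 31, 33 and 32 against 90, 116 and 128 in clone 3. Its log2 changes were 0.92 ± 0.26 and 1.36 ± 0.20 (edgeR adjusted p = 0.0049 and 3.42e-05). The value in clone 1 was 0.65 without 0 h replicate 1 and 1.40 without 0 h replicate 3, and it passed each time.

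In the shXBP1 clones none of IRF3, IRF5 and IRF7 passed the test at any time in the fits per clone. In shXBP1 clone 1 at 48 h the log2 changes were -0.39 ± 0.16, -0.04 ± 0.12 and -0.76 ± 0.29 (edgeR adjusted p = 0.0731, 0.838 and 0.0654), but this depended on the settings. There IRF3 passed with no filter, a correction for GC content, DESeq2 and the fit of all 48 libraries (-0.40, -0.15, -0.40 and -0.38), and IRF7 with no filter and the fit of all 48 libraries (-0.76 and -0.74). At 72 h IRF3 in shXBP1 clone 1, at -0.39, passed with no filter, the GC correction and the fit of all 48 libraries (-0.39, -0.17 and -0.37), and in clone 18, at -0.30, with no filter (-0.29) and without 72 h replicate 1 (-0.42). Without a single library, IRF7 at 24 h in clone 1 (24 h replicate 2, -0.87) and IRF5 at 72 h in clone 18 (72 h replicate 1, -0.38) passed as well. The difference of the shIRE1 and shXBP1 responses at 48 h was 0.77 ± 0.13 for IRF3, 0.87 ± 0.11 for IRF5 and 1.71 ± 0.30 for IRF7 (edgeR adjusted p = 1.61e-06, 2.08e-08 and 7.08e-06), and with the GC correction 0.42, 0.76 and 0.97, all still called. Of the canonical exons of IRF3, 14.2% lie opposite BCL2L12, which ran the other way at 48 h with log2 changes of -0.90 and -0.76 in the shIRE1 clones. In shXBP1 clone 18, IRF5 at 72 h held 40.8, 33.1 and 25.2 CPM, the last in the library that stood apart, and its log2 change was -0.21 with it and -0.04 without.

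These 3 members moved with the base composition of the libraries. For each library, the slope of its deviations from its group mean over all genes was taken against the GC content of the transcript, and it ran from -0.166 to 0.190 on the log2 scale per 10 points of GC. Over the 48 libraries the deviation of IRF3 from its group mean had a correlation of 0.936 with that slope, IRF7 of 0.788, IRF5 of 0.747 and IRF4 of -0.529. The slope and the deviations come from the same libraries, and each member adds a little to the slope, so these values are a description. The GC content of the longest transcript was 66.8% for IRF7, 59.0% for IRF3, 52.9% for IRF5 and 47.0% for IRF4. IRF1 and IRF2BP2, both at 52.6%, had correlations of 0.116 and -0.411, so the correlation did not rise steadily with GC content among the members. Over all genes with a known GC content, the log2 changes at 48 h also sloped with it. Per 10 points the slope was 0.145 and 0.249 in shIRE1 clones 1 and 3, and -0.211 and -0.0109 in shXBP1 clones 1 and 18. With a correction for GC in each library, chosen after the data were seen, the log2 changes at 48 h in shIRE1 clones 1 and 3 were 0.27 and 0.29 for IRF3, 0.71 and 0.95 for IRF5, and 0.61 and 0.75 for IRF7, and all 6 still passed. Without the correction, the rise of IRF7 at 72 h in clone 1 (0.84) was lost when 0 h replicate 1 or 2 or 72 h replicate 1 was left out (0.58, 0.74 and 0.69). At 24 h in clone 3 the change of IRF3 went from 0.29 (edgeR adjusted p = 0.027) to 0.05 (adjusted p = 0.499), and it was also lost without 0 h replicate 1 or 2 or 24 h replicate 2 or 3 (0.23 to 0.27). For IRF4 the corrected changes at 48 h were -1.20 and -2.17.

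**Figure D4:**
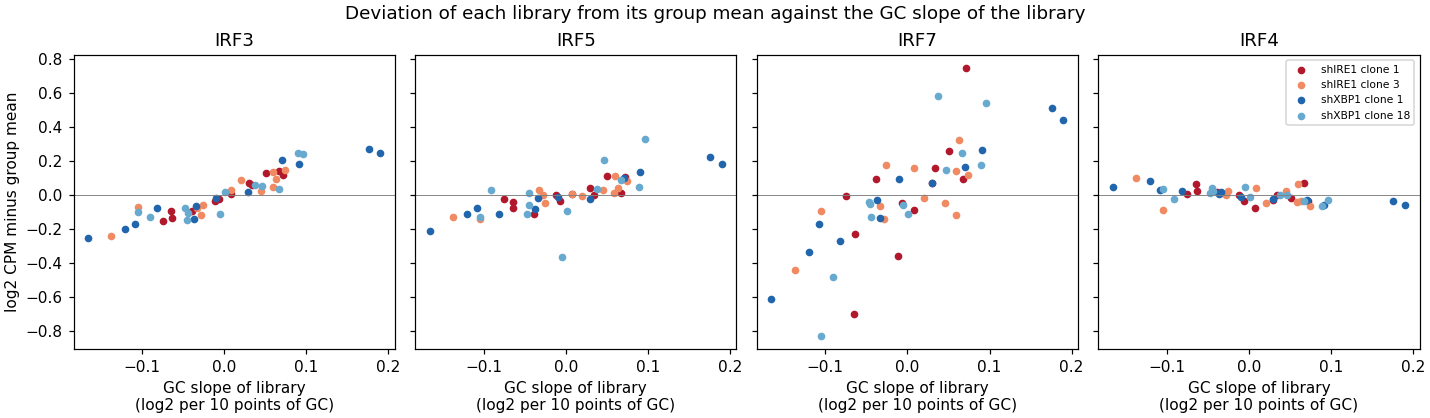
Deviation of IRF3, IRF5, IRF7 and IRF4 from the group mean (log2 CPM) in each of 48 libraries against the GC slope of the library (log2 per 10 points of GC). IRF3 follows the slope most closely, with a correlation of 0.936, and IRF4 runs weakly the other way at -0.529.

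IRF2, which can oppose IRF1, changed in 1 clone of each pair, downwards after IRE1 silencing and upwards after XBP1 silencing. In shIRE1 clone 3 it was at 105, 101 and 98.4 CPM at 0 h and at 68.8, 66.8 and 63.9 CPM at 48 h, and the groups did not overlap. Its log2 changes there were -0.41 ± 0.05, -0.62 ± 0.05 and -0.61 ± 0.05 (edgeR adjusted p = 1.97e-05, 1.09e-07 and 1.32e-07). In shIRE1 clone 1 it stayed between 69.8 and 78.4 CPM with no call, and its response at 48 h differed from that of clone 3 by 0.61 ± 0.07 on the log2 scale (edgeR adjusted p = 3.27e-09). In shXBP1 clone 1 IRF2 was at 73.2, 71.1 and 74.1 CPM at 0 h and at 104, 106 and 106 CPM at 48 h. The log2 changes of 0.49, 0.51 and 0.58 passed at each time (edgeR adjusted p = 2.07e-05, 1.42e-05 and 3.91e-06). The IRF2 level of shXBP1 clone 18 began at 129 ± 3.62 CPM, stayed between 116 and 133 CPM, and made no call. Its response at 48 h differed between the shXBP1 clones by 0.52 ± 0.07 (edgeR adjusted p = 2.92e-07), in a contrast where 24.1% of all genes differed. Over both clones of each kind, the shIRE1 response minus the shXBP1 response at 24, 48 and 72 h came to -0.41 ± 0.05, -0.58 ± 0.05 and -0.56 ± 0.05 (edgeR adjusted p = 3.54e-09, 2.20e-13 and 6.76e-13). This mean difference rests mainly on shIRE1 clone 3 and shXBP1 clone 1, since the other clone of each kind made no call.

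IRF2BP2 moved little but in the same direction in every clone. In all 12 comparisons of a later time with 0 h, its 3 later libraries lay below its 3 libraries at 0 h. The comparisons of a clone share its 0 h libraries, and the share of all genes that did so was not counted, so this is a description. By the test, a different measure, the share of all genes called lower was smallest in shXBP1 clone 18 at 24 h, at 1.30%. It was largest in shIRE1 clone 3 at 48 h, at 31.6%. In shXBP1 clone 18, for example, IRF2BP2 was at 74.0, 72.8 and 70.6 CPM at 0 h and at 60.4, 59.0 and 60.3 CPM at 24 h. The log2 changes at 24 h were -0.25 and -0.43 in shIRE1 clones 1 and 3 and -0.40 and -0.27 in shXBP1 clones 1 and 18, and they shrank to -0.08, -0.23, -0.25 and -0.20 at 72 h. It was called lower in 11 of the 12 comparisons, all but shIRE1 clone 1 at 72 h (edgeR adjusted p = 0.118). Those in shXBP1 clone 18 at 24 h and 72 h were narrow (edgeR adjusted p = 0.0146 and 0.0316) and were each lost when any single 0 h library was left out, with log2 values of -0.26 to -0.29 and -0.17 to -0.20. The 24 h call was also lost without 24 h replicate 2 or 3 (-0.26 and -0.27), and the 72 h call without 72 h replicate 2 (-0.18). Without the library that stood apart both calls held, at -0.27 and -0.22 (edgeR adjusted p = 0.0035 and 0.0241). The 0 h libraries of shIRE1 clone 3 held 95.01, 79.0 and 77.0 CPM, and without the first the change at 48 h was -0.26. The responses of IRF2BP2 to IRE1 and XBP1 silencing differed by 0.04 ± 0.05 at 48 h, which did not pass (edgeR adjusted p = 0.576), and all 4 clones received Dox.

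IRF9, the DNA-binding part of a complex that forms after type I interferon, had 0 to 8 counts per library and did not enter any test. Its summed counts were 2 at 0 h and 7 at 48 h in shIRE1 clone 1, and 6 and 19 in clone 3. Of its canonical exons, 93.05% are shared on the same strand with a gene that reads through it, so reads there may not have been assigned to IRF9, and its level stays uncertain. That gene, listed as AL136295.5, was itself at 0.439 to 1.77 CPM and changed by -0.61 and 1.17 on the log2 scale at 48 h in shIRE1 clones 1 and 3.

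**Figure D5:**
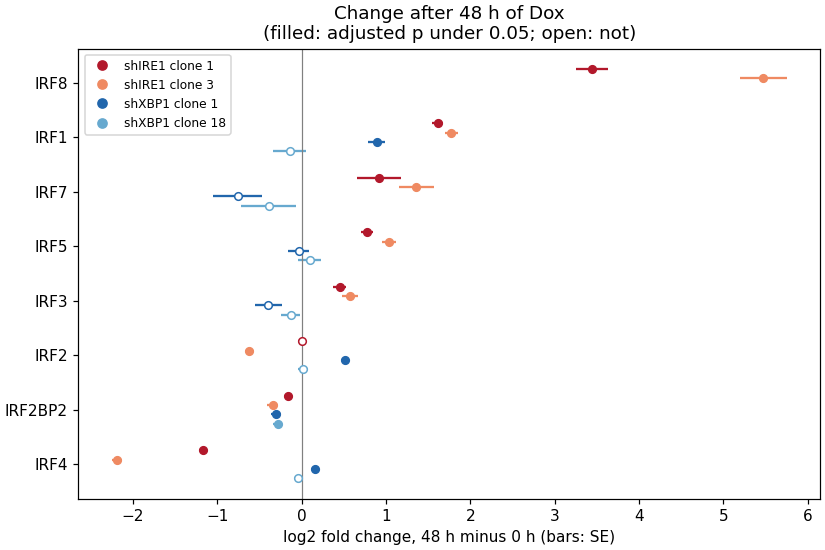
Change of each tested member after 48 h of Dox (log2 fold change, bars show SE), with filled points for adjusted p under 0.05 in edgeR and open points otherwise. IRF4 lies at -1.17 and -2.19 in the shIRE1 clones while IRF8, IRF1, IRF7, IRF5 and IRF3 lie above 0 there; IRF8, a description only, was not tested in the shXBP1 clones.

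Counted over the 7 members tested in every clone, which leaves out IRF8 and IRF9, most changed in the shIRE1 clones. In clone 1 at 48 h 4 were higher (IRF1, IRF3, IRF5 and IRF7) and 2 lower (IRF4 and IRF2BP2), where 33.9% of all genes tested were higher and 31.5% lower. At 24 h the counts were also 4 and 2 against 32.4% and 29.0% of all genes, and at 72 h 4 and 1 against 32.5% and 31.1%. In clone 3 the counts were 2 higher and 3 lower at 24 h (22.8% and 23.3% of all genes), and 4 higher and 3 lower at 48 h (31.6% and 31.6%) and at 72 h (29.7% and 30.5%). With about 3 in 10 genes called in each direction, a call alone does not set a member apart. In shXBP1 clone 1, of 7 tested, 3 were higher (IRF1, IRF2 and IRF4) and 1 lower (IRF2BP2) at each time, where 13.9% and 12.8% of all genes were called higher and lower at 24 h, 16.6% and 15.5% at 48 h, and 16.8% and 16.8% at 72 h. In shXBP1 clone 18, 1 of 7 was lower and 0 higher at each time in edgeR, where 0.291% and 1.30%, 2.28% and 3.50%, and 4.41% and 5.55% of all genes were higher and lower at 24, 48 and 72 h.

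The clones differed in their IRF levels before any Dox. IRF1 was at 6.73 ± 0.12 CPM in shXBP1 clone 1 against 30.0 ± 1.12 CPM in clone 18 (log2 difference -2.15 ± 0.14, edgeR adjusted p = 1.29e-15), and IRF2 differed by -0.82 ± 0.05. IRF5 and IRF4 were lower as well, by -0.45 ± 0.11 and -0.20 ± 0.05 (edgeR adjusted p = 0.00079 and 0.000403), in a contrast where 51.3% of all genes differed. Between the shIRE1 clones at 0 h, clone 1 minus clone 3 was -0.60 ± 0.14 for IRF1, -0.51 ± 0.05 for IRF2, -0.14 ± 0.05 for IRF2BP2 and -0.13 ± 0.05 for IRF4 (edgeR adjusted p = 0.000573, 3.07e-11, 0.0217 and 0.0234), where 40.6% of all genes differed. The difference of IRF4 was lost when clone 1 replicate 2 or 3 or clone 3 replicate 2 was left out (-0.11 each), and that of IRF2BP2 without clone 3 replicate 1 (-0.05). IRF3 and IRF7 did not pass the test in either contrast, with log2 differences of -0.04 ± 0.13 and -0.43 ± 0.35 between the shIRE1 clones and 0.01 ± 0.13 and 0.12 ± 0.29 between the shXBP1 clones.

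Across the 16 group means, centred within each clone, the genes whose pattern was most like that of IRF4 were IGKC, CD55, FH, GPRC5D and SCD, with correlations of 0.989, 0.984, 0.984, 0.983 and 0.982 among 12008 genes compared. IGKC encodes an immunoglobulin light chain and GPRC5D a surface receptor of plasma cells, and they changed by -1.20 and -1.38 in shIRE1 clone 1 and by -2.52 and -3.24 in clone 3 at 48 h on the log2 scale. The most opposite were TSC22D1, JAK3, ZFAT, PNMA1 and ZNF671, at -0.990, -0.988, -0.984, -0.983 and -0.981. JAK3, the kinase of cytokine receptors with the common gamma chain, changed by 0.69 and 1.14 at 48 h. Within the family IRF8 ran most opposite to IRF4, at -0.976, followed by IRF1 at -0.883 and IRF7 at -0.82. The 16 points share clones, libraries and the 0 h groups, so these values describe a shared time course.

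Around the family, genes of the sensing pathways that lead to IRF3, IRF5 and IRF7 changed in both directions. Of 17 genes listed, 16 were tested in the shIRE1 clones. In clone 1 at 48 h 9 were higher and 2 lower, with a median log2 change of 0.27 against 0.03 over all genes, and in clone 3 11 were higher and 5 lower with a median of 0.41 against 0.02. Over all genes tested, 33.9% were higher and 31.5% lower in clone 1, and 31.6% each way in clone 3, and these shares are the background of every list count at 48 h here. TLR3, a receptor of double-stranded RNA, went from 0.485 ± 0.15 to 2.58 ± 0.27 CPM in clone 1 and from 0.157 ± 0.025 to 4.05 ± 0.21 CPM in clone 3. IKBKE, a kinase that acts on IRF3 and IRF7, rose by 1.19 and 1.81 on the log2 scale, and IFIH1, the RNA sensor MDA5, by 0.91 and 0.62. CGAS, the DNA sensor, fell by 0.43 and 1.11. In shXBP1 clone 1, 3 of 15 tested were higher and 1 lower (all genes 16.6% and 15.5%), and in shXBP1 clone 18, 0 of 16 were higher and 1 lower in edgeR (all genes 2.28% and 3.50%).

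Interferon genes themselves were almost all below the level that could be tested. Only IFNG of the 6 listed was tested in the shIRE1 clones, and it went from 0.595 ± 0.049 to 4.87 ± 0.71 CPM in clone 1 and from 0.508 ± 0.092 to 8.47 ± 0.23 CPM in clone 3 at 48 h. Of 13 genes for interferon receptors and JAK-STAT signalling, 9 were higher and 4 lower in clone 1 (median 0.48), and 6 were higher and 5 lower in clone 3 (median 0.05), against 33.9% and 31.5%, and 31.6% each way, of all genes. SOCS1 and USP18, which restrain this signalling, rose by 3.42 and 1.70 in clone 1 and by 3.20 and 2.66 in clone 3 on the log2 scale, from levels of at most 1.00 CPM. Of 12 interferon-stimulated genes, 10 were tested in clone 1 and 11 in clone 3, with 4 higher and 2 lower (median 0.39), and 6 higher and 2 lower (median 0.60). MX1 and IFI6 rose, by 2.04 and 2.25 in clone 1 and by 4.45 and 2.10 in clone 3, while IFIT3 fell by 1.47 and 1.99. The list moved in both directions. Of 12 receptor and signalling genes tested in shXBP1 clone 1, 7 were higher and 0 lower in edgeR (all genes 16.6% and 15.5%), and of 8 interferon-stimulated genes tested 1 was lower and 0 higher.

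Genes that act on IRF4 or bind DNA beside it were mixed. Of 12 listed, 11 were tested, with 3 higher and 4 lower in shIRE1 clone 1 and 5 higher and 4 lower in clone 3 at 48 h (medians -0.0047 and 0.12 on the log2 scale), where 33.9% and 31.5%, and 31.6% each way, of all genes were called. SPIB, the ETS partner of IRF4 and IRF8, fell from 24.0 ± 0.81 to 10.7 ± 0.69 CPM in clone 1 and from 18.1 ± 1.5 to 6.40 ± 0.86 CPM in clone 3. MITF fell by 0.56 and 1.05 on the log2 scale, and BATF, an AP-1 partner, rose by 0.58 and 0.89. IKZF1, the Ikaros factor that sustains IRF4 expression in myeloma, rose by 0.27 and 0.84. Of the relatives of IRF2BP2, IRF2BP1 rose by 0.41 in each clone, and IRF2BPL was lower by 0.31 in clone 1 (log2 change -0.31) but higher by 1.01 in clone 3.

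Of 9 genes that the study names as targets of IRF4, 8 were lower and 1 higher in each shIRE1 clone at 48 h, with medians of -0.92 and -0.84 on the log2 scale, where 31.5% and 31.6% of all genes were lower. The study drew these names in part from libraries like these, so the direction is not independent evidence. PRDM1, the repressor that fixes plasma cell identity, went from 296 ± 2.4 to 147 ± 4.5 CPM in clone 1 and from 239 ± 4.3 to 135 ± 3.5 CPM in clone 3. UHRF1, E2F1 and E2F2 fell by 1.49, 0.80 and 1.12 in clone 1 and by 0.95, 1.30 and 0.95 in clone 3, and E2F5 rose by 0.99 and 1.12. In shXBP1 clone 1, where IRF4 was not lower, 7 of the 9 were also lower and 0 higher in edgeR (median -0.38, with 15.5% of all genes lower), XBP1 itself among them. In shXBP1 clone 18, 1 was lower, the silenced XBP1 itself (log2 change -1.94), and 1 was higher. There 3.50% of all genes were lower and 2.28% higher.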

How the data were processed

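RNA of 48 AMO1 cultures was sequenced as stranded poly(A) libraries with single-end reads. The authors deposited counts per gene and a log2 table, whose values equal log2 CPM from edgeR at prior count 2. Per the labels, the submitters' processing notes name GSNAP, GRCh37/hg19, R 4.1.3, edgeR 3.32.1 and limma 3.46.0. Gene positions here are GRCh38, matched by gene ID (57532 of 58302 in GENCODE). For these libraries, strand settings and the counting tool are not given in the sources used here; the study's methods name HTSeqGenie for companion libraries.

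From the counts, edgeR 4.0.16 (R 4.3.3) was used with filterByExpr (minimum count 10, total 15), TMM scaling and the quasi-likelihood test, per clone over 12 libraries and jointly over 48. P-values were Benjamini-Hochberg adjusted over all genes tested (16603 to 18445), with a threshold of 0.05. CPM is scaled by TMM factors, and each ± beside a log2 value is its SE. DESeq2 1.42.0, limma 3.58.1 on the log2 table, other scaling and filters, and leaving out each library were alternatives. The fits were also run on counts simulated for a single clone, and that outcome is not given here. The members and lists were chosen with earlier results of these data known. Genes named were all members, ERN1 and XBP1, up to 4 genes per list called in the same direction in both shIRE1 clones with the largest mean change at 48 h (any gene of a list of 9 or fewer), and the 5 most like or opposite to IRF4 with a mean log2 CPM above 1. Replicates are flasks of a clone. Some genes of the lists are not reported here by name.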

Additional observations from a re-analysis of the deposited data

Results flagged for a closer look

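The mean responses of 6 members differed between the shIRE1 and the shXBP1 clones by a test of the difference itself, set against the spread between flasks. In the same tests at 24, 48 and 72 h, 19.1%, 28.9% and 28.0% of all genes were higher. Those lower were 19.7%, 28.0% and 27.4%, so a call alone does not set a member apart. At 24 h the shIRE1 minus shXBP1 difference on the log2 scale was -0.41 for IRF2, 0.44 for IRF3, -0.54 for IRF4, 0.46 for IRF5 and 0.90 for IRF7. With the GC correction IRF3 was 0.19 and IRF7 0.38, the latter no longer called (edgeR adjusted p = 0.125). By single pairs IRF3 at 24 h missed the threshold in both (0.46 and 0.43, adjusted p = 0.0511 and 0.0684), and IRF7 for shIRE1 clone 3 against shXBP1 clone 18 (0.38, adjusted p = 0.545). At 48 h it was 1.32 for IRF1, -0.58 for IRF2, 0.77 for IRF3, -1.74 for IRF4, 0.87 for IRF5 and 1.71 for IRF7. At 72 h it was 1.24 for IRF1, -0.56 for IRF2, 0.73 for IRF3, -1.69 for IRF4, 0.78 for IRF5 and 1.51 for IRF7. Without the library that stood apart these were 1.09, -0.58, 0.70, -1.69, 0.69 and 1.47, all still called. With the GC correction IRF3 was 0.42 and 0.44 and IRF7 0.97 and 0.86 at 48 and 72 h, all still called. Each kind of shRNA is represented by 2 clones, so shRNA and clone cannot be told apart beyond these lines. IRF2 was called in only 1 clone of each kind. Its responses at 48 h differed by 0.61 and 0.52 within the kinds, about as much as between them.

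Clones with the same shRNAs differed in their responses at 48 h as well, where 30.8% of all genes differed between the shIRE1 clones and 24.1% between the shXBP1 clones. Clone 1 minus clone 3 of shIRE1 was 0.61 for IRF2 and 1.01 for IRF4. For IRF8 it was -2.04, given as a description since IRF8 entered the fit through its later shIRE1 groups and held 8 counts at 0 h in clone 3, and it ran from -2.90 to -1.61 leaving out 1 library. Clone 1 minus clone 18 of shXBP1 was 1.05 for IRF1, 0.52 for IRF2 and 0.22 for IRF4.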

How the results depend on the processing

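Of 3018 values of single genes under the alternatives, 2915 kept their side of the threshold, 61 lost a call, 42 gained one and 0 called values reversed. Among the 2915, 62 values that were not called under either setting changed sign. Replicate numbers were not treated as pairs, since in 0 of 12 comparisons did every same-numbered pair correlate above 0.1 (range -0.41 to 0.25). This rule does not exclude pairing. In shXBP1 clone 1 at 72 h, for example, the same-numbered pairs had 0.217, 0.069 and 0.064. With the replicate as a block, IRF4 in shXBP1 clone 1 at 24 h was 0.14 (edgeR adjusted p = 0.0652), and 0 members were called in shXBP1 clone 18 at 72 h. With only the 6 libraries compared, IRF4 in shXBP1 clone 1 was 0.15 at 24 h (adjusted p = 0.111), its 48 h value was 0.16 (adjusted p = 0.0531), and 0 members were called in clone 18 at 72 h. With 1 library left out these IRF4 changes ran from 0.13 to 0.16 and from 0.12 to 0.18. In shXBP1 clone 18 the number of members called was 0 with no filter at 24 h (0 to 1 leaving out 1 library) and 2 in the fit of all 48 libraries at 72 h (0 to 3, with 3 without 72 h replicate 1).

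IRF4 in shIRE1 clone 1 minus clone 3 at 0 h was -0.11 with RLE scaling (adjusted p = 0.0552) and -0.11 with no filter (adjusted p = 0.233), and -0.16 to -0.11 leaving out 1 library. The difference of its shXBP1 responses was 0.21 with no filter (adjusted p = 0.0814), 0.13 with the GC correction (adjusted p = 0.0658) and 0.16 to 0.22 leaving out 1 library, with the call lost without shXBP1 clone 1 0 h replicate 1 or 48 h replicate 2, or clone 18 0 h replicate 2 or 48 h replicate 3. The cause of these changes was not tested. The GC correction and the fits without the library that stood apart were chosen after seeing the data. Depth limits IRF8, IRF9 and IRF7.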
